A study of Capra hircus with 20 samples.

Results

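The hypothalamus of 5 goats aged 180 days (M6) was compared with that of 5 goats aged 120 days (M4), across all genes with an expression value. These 10 libraries were taken by their age labels from the 20 libraries of the series, whose other 10 come from 1-day-old (D1) and 2-month-old (M2) goats. All were healthy female Jining grey goats kept under the same feeding, no treatment is given in the labels, and each goat gave 1 strand-specific library of RNA depleted of rRNA. Which nuclei each piece of tissue held is not stated, and a level is an average over all its cells. In such bulk tissue, fewer cells of a type and less RNA per cell cannot be told apart.

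The hypothalamus is the part of the brain that controls the pituitary. Its gonadotropin-releasing hormone (GnRH) neurons start puberty when their pulses of GnRH quicken, and kisspeptin and neurokinin B neurons of the arcuate nucleus drive those pulses. Other nuclei make oxytocin and vasopressin, the releasing hormones of the growth, stress and thyroid axes, and the peptides that set appetite and wakefulness. The series follows this tissue from birth through sexual maturation, and M6 against M4 is its last step.

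No gene passed the test between M6 and M4 after correction for the number of genes tested. Of 16771 genes, 0 (0%) were differentially expressed genes (DEGs), meaning at least a doubling or a halving on the log2 scale with a limma p adjusted over all genes that was under 0.05, and the smallest adjusted p was 0.700. At an unadjusted p under 0.05 there were 1152 genes (6.87%), 669 higher at M6 (3.99%) and 483 lower (2.88%). In 130 genes (0.775%) all 5 M6 libraries lay on one side of all 5 M4 libraries, 77 with M6 above (0.459%) and 53 with M6 below (0.316%). FPKM, a fragment number corrected for gene length and for the depth of the library, is used for every level below. Log2 fold changes are differences on the log2(FPKM + 0.1) scale, M6 minus M4, with their standard errors (SE), and this scale understates the change of genes with low FPKM. In the same fit, genes with an unadjusted p under 0.05 made up 15.6% between D1 and M2, 8.68% between M2 and M4, 8.71% between D1 and M4, 7.41% between D1 and M6 and 6.14% between M2 and M6. Differences between these shares were not tested. It called 9 DEGs between D1 and M4 (0.0537%), 1 between D1 and M6 (0.00596%) and 0 (0%) in the other 3.

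**Figure D1:**
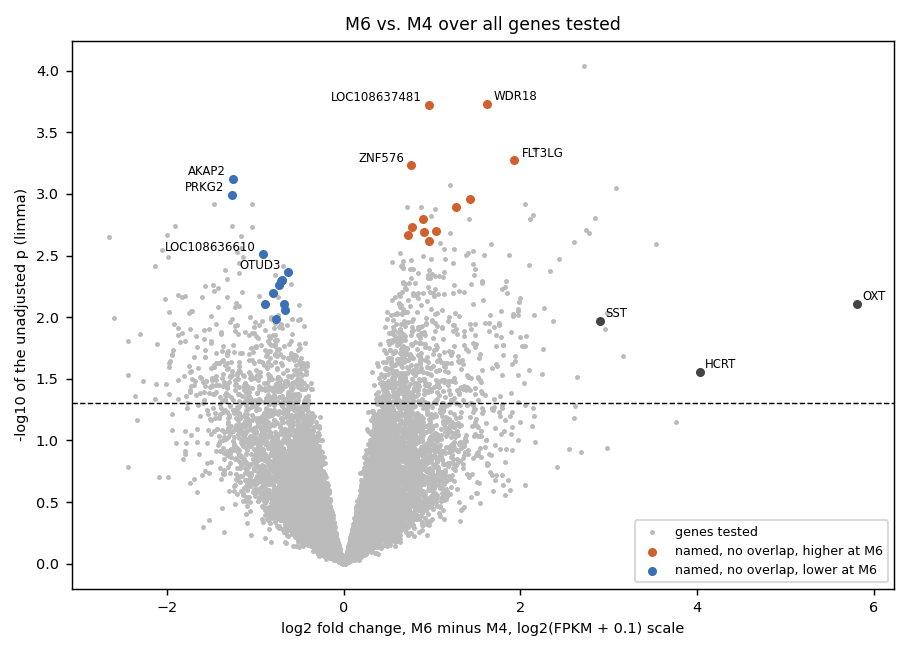
Each point is 1 of the 16771 genes tested, with its log2 fold change (M6 minus M4, on the log2(FPKM + 0.1) scale) against the -log10 of its unadjusted limma p. The dashed line marks the 0.05 level of that p, and coloured points are the 24 named genes without overlap between stages. OXT, HCRT and SST are dark. High values of OXT and HCRT were held by a few libraries, while SST was lower in every M4 library but replicate 1 than in every M6 library.

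Goats of different ages were about as much alike as goats of 1 age. Across genes, log2(FPKM + 0.1) of a pair of goats of 1 stage correlated with a median Pearson's r of 0.901 (20 pairs), and that of an M4 goat and an M6 goat with a median r of 0.898 (25 pairs). Over the 13533 genes with a mean of at least 1 FPKM, 11.7% of the summed squares lay between the stages. The average share of 1 of the 9 degrees of freedom among 10 libraries is 11.1%. The first principal component, the single direction of widest spread, held 33.9%. The summed FPKM of a library was 306941 ± 33180 (SD, n = 5) at M4 and 335815 ± 24900 at M6, a difference that an exact permutation test did not separate (two-sided p = 0.175). The number of genes above 0 was 16575 ± 317 at M4 and 16735 ± 655 at M6 (two-sided exact permutation p = 0.635). The reads behind each value are unknown, so the spread between goats carries the precision.

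Several libraries stood apart in the brain regions whose markers they held. In M4 replicate 1 the cortical genes NEUROD6, a transcription factor of cortical excitatory neurons, and SLC17A7, their vesicular glutamate transporter, were at 23.6 and 68 FPKM. Outside that library NEUROD6 was at most 0.224 FPKM and SLC17A7 at most 1.01 FPKM. M4 replicate 2 held the thalamic genes LHX9, TCF7L2 and CALB2 at 11, 86.3 and 247 FPKM. M6 replicate 2 held the striatal genes PPP1R1B, the dopamine-regulated phosphatase inhibitor DARPP-32, and ADORA2A, an adenosine receptor, at 102 and 18.7 FPKM. The highest values of these genes in the other 9 libraries were 6.82 and 0.545 FPKM. M6 replicate 3 had the lowest presynaptic and ion channel levels and the lowest median correlation with the other 9 libraries (0.874), and KLHDC1 took 9.83% of its summed FPKM. M6 replicate 4 had the highest FOXJ1, a regulator of motile cilia in ependymal cells, at 4.82 FPKM, and low myelin genes. Of 12 pituitary markers, 4 passed the expression filter and 2 were listed at 0 in all 10 libraries, and the 11 with a value summed to 0.553 to 4.38 FPKM per library.

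**Figure D2:**
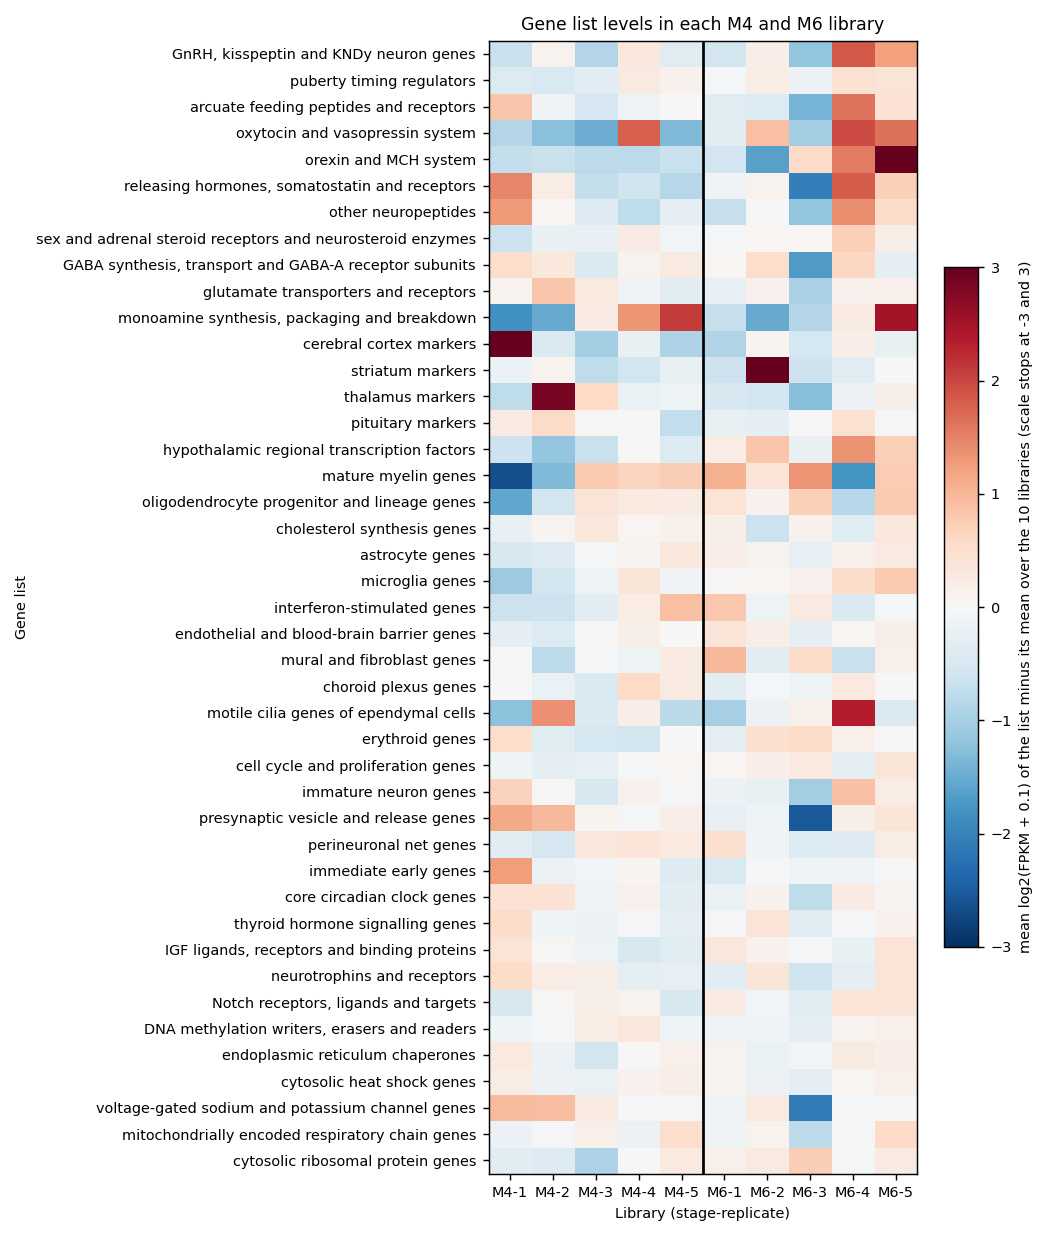
Colours give the mean log2(FPKM + 0.1) of the tested genes of each list in each library, minus the list's mean over the 10 libraries (red above, blue below), with M4 to the left of the line and M6 to the right. The cortex list is highest in M4 replicate 1, the thalamus list in M4 replicate 2 and the striatum list in M6 replicate 2, while presynaptic and channel genes are lowest in M6 replicate 3.

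Because of these libraries, some values below, mostly those that turned sign or moved by over 1.5 times, are also given without M6 replicate 3. Some are also given from a fit of 6 libraries (M4 replicates 3, 4 and 5 against M6 replicates 1, 4 and 5, with all D1 and M2 libraries). That fit leaves out M4 replicates 1 and 2 and M6 replicates 2 and 3. It keeps M6 replicate 4, which also stood apart, with high FOXJ1 and low myelin genes. The 6 libraries were chosen after the data were seen. The part of these libraries in a difference below was not tested except by these fits.

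Among genes with a mean of at least 1 FPKM and no overlap between stages, the 12 with the smallest p in each direction were examined. Every one of the 24 had an adjusted p of 0.700, so none passed the test. The 24 were chosen for this contrast, so their values are a description. They kept their sign in every alternative fit. Without overlap, the sign could not turn by leaving out libraries, by another filter or by another pseudocount. WDR18, a subunit of a complex that matures the large ribosomal subunit (chr7:66970713-66978321, genome build ARS1.2), had the smallest p of them. Its level was 0.643, 0.934, 1.63, 0.820 and 0.447 FPKM in M4 replicates 1 to 5 and 2.52, 2.64, 2.83, 2.34 and 3.48 FPKM in M6 replicates 1 to 5. The M6 goats lay close together and the M4 goats spread more widely, with replicate 3 nearest to M6. The log2 fold change was 1.62 ± 0.36 (SE), with a 95% interval of 0.88 to 2.36.

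LOC108637481 (chr14:51012393-51019901), a protein-coding gene without a name, was at 4.83, 6.96, 4.04, 8.34 and 8.74 FPKM at M4 and 12.8, 10.1, 16.4, 12.1 and 11.3 FPKM at M6 (log2 fold change 0.96 ± 0.21). The 5 M6 values spanned less than a doubling, and the M4 mean of 6.58 ± 2.08 FPKM (SD, n = 5) was also below that of D1 (17.7 ± 2.64) and of M2 (12.7 ± 2.13). FLT3LG, the ligand of the FLT3 receptor on blood progenitors and dendritic cells (chr18:56939603-56949283), was at 0.881, 1.12, 0.373, 0.234 and 1.26 FPKM at M4 and 2.1, 2.48, 5.25, 3.01 and 2.1 FPKM at M6 (log2 fold change 1.93 ± 0.47). Its highest value belonged to M6 replicate 3, the library with low neuronal genes. IGFALS, the acid-labile subunit that keeps insulin-like growth factors in the circulation (chr25:1278080-1283896), was at 0.593, 0.425, 0.311, 0.569 and 0.455 FPKM at M4 and 1.18, 2.95, 1.61, 0.746 and 1.27 FPKM at M6 (log2 fold change 1.42 ± 0.37). At D1 and M2 it averaged 0.449 ± 0.151 and 0.542 ± 0.235 FPKM, so that M6 was the highest of the 4 stage means. RPL36, a protein of the large ribosomal subunit (chr7:91913895-91915409), was at 53.6, 168, 59.9, 129.5 and 131 FPKM at M4 and 186, 259.6, 394, 178 and 226 FPKM at M6 (log2 fold change 1.27 ± 0.34). Its end overlaps that of LONP1 in the annotation, and how fragments shared by overlapping genes were counted is not stated.

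The other 7 genes with every M6 library above M4 were ZNF576, CIB1, UBXN8, LOC102185698, C10H14orf93, TAZ and APOM. Their log2 fold changes ran from 0.73 in TAZ to 1.04 in LOC102185698. CIB1, a calcium- and integrin-binding protein (chr21:20908506-20911828), averaged 11.5 ± 5.18 FPKM at M4 and 19.9 ± 2.77 FPKM at M6. Its M4 libraries fell into a low trio (replicates 1 to 3, up to 8.62 FPKM) and a pair just under M6 (replicates 4 and 5, up to 17.6 FPKM). UBXN8, which tethers a degradation factor to the endoplasmic reticulum (chr27:18729524-18748568), averaged 8.79 ± 1.32 FPKM at M4 and 15.1 ± 2.74 FPKM at M6. APOM, the apolipoprotein that carries sphingosine 1-phosphate (chr23:22318571-22323497), averaged 2.85 ± 1.2 and 5.31 ± 0.944 FPKM, and it overlaps BAG6. In 6 of the 12 higher genes the highest of the 10 libraries was M6 replicate 3.

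AKAP2, an anchor of protein kinase A (chr8:99107091-99477897), led the genes with every M6 library below M4. It was at 14.9, 36.6, 34.4, 18.6 and 14.4 FPKM at M4 and 9.28, 5.85, 8.34, 10.6 and 13.1 FPKM at M6 (log2 fold change -1.26 ± 0.32). M4 replicates 2 and 3 stood highest, and the M6 mean of 9.42 ± 2.67 FPKM was near those of D1 (10.9 ± 3.79) and M2 (9.7 ± 2.99). The gene spans a pseudogene and a lncRNA gene. PRKG2, a cGMP-dependent protein kinase (chr6:96343303-96453887), was at 4.77, 5.32, 5.64, 2.86 and 2.71 FPKM at M4 and 1.55, 1.54, 0.995, 2.04 and 2.37 FPKM at M6 (log2 fold change -1.26 ± 0.33), and M6 replicate 3 was the lowest of the 10 libraries. With 6 libraries the log2 fold change of PRKG2 was -0.81. SRD5A1, the 5α-reductase that turns testosterone into dihydrotestosterone and progesterone into neurosteroid precursors (chr20:66521371-66557879), was at 20.1, 27.1, 21.4, 15.9 and 14.2 FPKM at M4 and 13.8, 13.7, 7.78, 10.1 and 14.1 FPKM at M6. Its lowest M4 library and its highest M6 library were nearly level, and the log2 fold change was -0.73 ± 0.23, or -0.43 with 6 libraries.

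The remaining 9 genes with every M6 library below M4 were LOC108636610, OTUD3, PRUNE2, NCOA7, PMEPA1, FAM234B, NDUFAF5, KCMF1 and PITPNA, with log2 fold changes from -0.91 in LOC108636610 to -0.63 in OTUD3. PRUNE2 (chr8:52501819-52803356) averaged 20.2 ± 2.93 FPKM at M4 and 12.6 ± 2.46 FPKM at M6. NCOA7, a coactivator of nuclear receptors (chr9:12608402-12765566), averaged 35.9 ± 6.93 and 22.1 ± 4.88 FPKM. PMEPA1, an inhibitor of transforming growth factor β signalling (chr13:57779071-57835942), averaged 11.6 ± 1.57 and 7.02 ± 2.46 FPKM. OTUD3 and KCMF1 act in the removal and addition of ubiquitin, NDUFAF5 assembles respiratory complex I and PITPNA transfers phosphatidylinositol. NDUFAF5 overlaps ESF1. In 9 of the 12 lower genes the lowest of the 10 libraries was M6 replicate 3, and in the fit of 6 libraries the log2 fold changes of OTUD3, PRUNE2 and PITPNA were -0.31, -0.43 and -0.40.

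M4 was the extreme stage in most of these genes. The M4 mean was the lowest of the 4 stages in 65 of the 77 genes with every M6 library above M4 (84.4%), against 4145 of the 8719 genes tested with a higher mean at M6 (47.5%). It was the highest of the 4 in 43 of the 53 genes with every M6 library below M4 (81.1%), against 3566 of 8051 genes with a lower mean at M6 (44.3%). The genes were picked on their M4 and M6 values, which by itself favours an extreme M4 mean, and the shares were not tested.

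**Figure D3:**
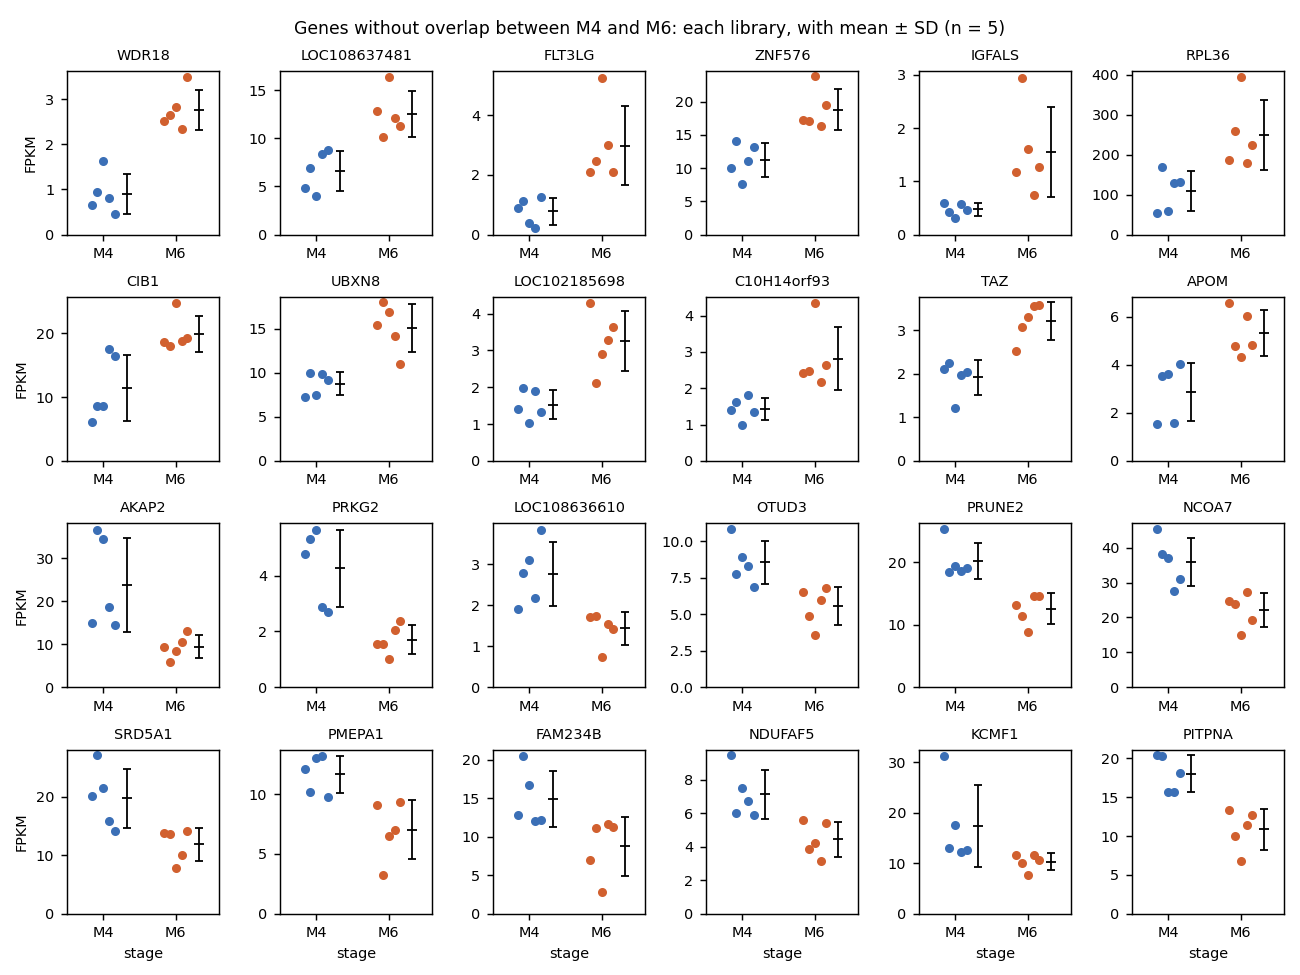
Each panel shows 1 of the 24 named genes, with FPKM on an axis from 0, a point for each of the 5 libraries of M4 (blue) and M6 (orange) in order of replicate, and the mean ± SD in black. In the upper 12 panels every M6 point lies above every M4 point, and in the lower 12 every M6 point lies below.

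Gene groups were described next, with 43 lists holding 675 different genes, 622 of them tested. None had an adjusted p under 0.05, while 41 were higher and 24 lower at an unadjusted p under 0.05, together 10.5% of those tested against 6.87% of all genes. The median log2 fold change of all genes tested was 0.04, which is the value to set beside the list medians. For the fit without M6 replicate 3 that value is 0.07, and for the fit of 6 libraries 0.09. For the signs, 8719 of the genes tested had a higher mean at M6 and 8051 a lower one. Members of a list can vary together between libraries, so their signs are not independent.

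Cytosolic ribosomal protein genes had the most members with a higher level at M6. All 38 had a positive log2 fold change (median 0.54), and 14 of the 38 had an unadjusted p under 0.05, beside 3.99% of all genes in that direction. RPS2, a protein of the small subunit, was at 182, 292, 225, 249.9 and 466 FPKM at M4 and 374, 759.9, 714, 334 and 573 FPKM at M6 (log2 fold change 0.96 ± 0.30, limma adjusted p = 0.700, and 0.48 with 6 libraries). M4 replicate 5 lay above M6 replicates 1 and 4, so the stages overlapped. RPS12 averaged 118 ± 48.2 FPKM at M4 and 204 ± 61 FPKM at M6, RPS19 255 ± 102 and 435 ± 101 FPKM, and RPLP1, of the ribosomal stalk, 578 ± 317 and 949 ± 132 FPKM. Per library, the list summed to 7139 to 17270 FPKM at M4 and to 13430 to 22560 FPKM at M6. M6 replicate 3 had the highest sum and M4 replicate 3 the lowest. Without M6 replicate 3 the median was 0.42 and 8 genes had an unadjusted p under 0.05, beside 502 higher of all 16771 genes. With 6 libraries the median was 0.32 and the number 0, beside 494 higher of all genes. Ribosomal protein genes have many processed pseudogenes that share their reads, so the level of a single one is uncertain.

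Genes of microglia, the resident macrophages of the brain, also had higher means at M6. All 16 of their genes had a positive log2 fold change (median 0.66). An unadjusted p under 0.05 was seen in 6, beside 3.99% of all genes in that direction. C1QB, a subunit of complement C1q, was at 5.14, 13.3, 9.34, 18.6 and 15.1 FPKM at M4 and 19.1, 16.9, 14.5, 34.6 and 31.2 FPKM at M6 (log2 fold change 0.96 ± 0.31, limma adjusted p = 0.700). M6 replicates 4 and 5 were the highest, and the M4 value of replicate 4 lay among the other M6 libraries. P2RY13, a purine receptor, averaged 3.4 ± 1.35 and 5.56 ± 0.401 FPKM, TYROBP, an adaptor of TREM2, 16.1 ± 9.71 and 28 ± 9.36 FPKM, and LAPTM5, a lysosomal protein, 24 ± 8.21 and 39.9 ± 17.1 FPKM. P2RY12, the receptor that marks resting microglia, averaged 29.2 ± 10.6 FPKM at M4 and 32.8 ± 6.46 FPKM at M6 (log2 fold change 0.24 ± 0.33, limma adjusted p = 0.911, and -0.12 with 6 libraries). The list summed to 94.6 to 266 FPKM at M4 and 201 to 346 FPKM at M6. Its lowest sums were those of M4 replicates 1 and 2, the libraries with cortical and thalamic genes. Without M6 replicate 3 the median was 0.68 and the number with an unadjusted p under 0.05 was 6, beside 502 higher of all 16771 genes. With 6 libraries the median was 0.43 and the number 1, beside 494 higher of all genes.

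Most genes of synapses and channels had lower means at M6. Of the 19 presynaptic vesicle and release genes, 18 had a negative log2 fold change (median -0.90) and 6 had an unadjusted p under 0.05, beside 2.88% of all genes in that direction. SNAP25, a SNARE protein of synaptic vesicle fusion, was at 1562, 571, 369.9, 403 and 662 FPKM at M4 and 425, 535, 39.2, 327 and 288 FPKM at M6 (log2 fold change -1.34 ± 0.63, limma adjusted p = 0.723). M4 replicate 1 lay far above the other libraries and M6 replicate 3 far below, with the other 8 between 288 and 662 FPKM. The log2 fold change of SNAP25 was -0.68 without M6 replicate 3 and -0.43 with 6 libraries. SYT1, the calcium sensor of release, was at 569, 107, 131, 133 and 106 FPKM at M4 and 37.8, 112, 8.31, 144 and 115 FPKM at M6. UNC13A, which primes vesicles, averaged 8.79 ± 5.0 and 4.12 ± 2.37 FPKM, VAMP2, another SNARE protein, 54 ± 17.7 and 34.1 ± 13.8 FPKM, and BSN, a scaffold of the active zone, 3.74 ± 2.38 and 1.8 ± 1.44 FPKM. The size of the group's difference moved with the libraries that stood apart. The cortex markers summed to 25.9 to 346 FPKM at M4 and 30.6 to 96.7 FPKM at M6, and the thalamus markers to 49.2 to 527 and 37 to 84.6 FPKM. Without M6 replicate 3 the median was -0.35. In that fit 0 genes of the list had an unadjusted p under 0.05 in limma, beside 174 lower of all 16771 genes. With 6 libraries the median was -0.02.

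Voltage-gated sodium and potassium channel genes showed the same pattern, with 21 of 22 negative (median -0.83). An unadjusted p under 0.05 was seen in 4, beside 2.88% of all genes in that direction. SCN3B, an auxiliary sodium channel subunit, was at 38.2, 21.6, 6.23, 13.6 and 8.18 FPKM at M4 and 7.28, 4.6, 1.41, 6.89 and 6.94 FPKM at M6 (log2 fold change -1.57 ± 0.51, and -0.33 with 6 libraries). KCNA2, a potassium channel of axons, averaged 14.7 ± 4.82 and 7.45 ± 5.72 FPKM, with M6 replicate 3 at 0.683 FPKM. The median of the channel list was -0.36 without M6 replicate 3 and -0.06 with 6 libraries. Among receptors, GRIN2A, an NMDA receptor subunit, was at 25.4, 12.8, 1.84, 2.16 and 2.46 FPKM at M4 and 2.44, 2.48, 0.227, 2.08 and 2.1 FPKM at M6. Its log2 fold change of -1.70 ± 0.68 came with 2 high M4 libraries and 1 low M6 library, and with 6 libraries it was 0.04. GABRB2, a GABA-A receptor subunit, averaged 77.6 ± 60.9 and 32.8 ± 22.1 FPKM (log2 fold change -1.45 ± 0.66, -0.75 without M6 replicate 3 and -0.44 with 6 libraries). SLC17A6, the vesicular glutamate transporter of thalamic and hypothalamic neurons, ranged from 4.59 to 231 FPKM at M4 and from 0.478 to 36.5 FPKM at M6. BDNF, a neurotrophin, was at 9.82, 11.5, 2.02, 1.36 and 1.6 FPKM at M4 and at 0.530, 0.247, 0, 3.32 and 3.02 FPKM at M6, with its highest values in the M4 libraries that held cortical and thalamic genes.

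Myelin genes varied widely among goats of 1 age. Of 18 tested, 17 had a positive log2 fold change (median 0.76) and 0 had an unadjusted p under 0.05 in limma. MOBP, a protein of compact myelin, was at 54.6, 87.7, 1342, 742 and 773 FPKM at M4 and 677, 421, 1070, 56.6 and 575 FPKM at M6 (log2 fold change 0.29 ± 0.97, limma adjusted p = 0.963). The 3 libraries far below the other 7 were M4 replicates 1 and 2 and M6 replicate 4, and the highest was M4 replicate 3. The log2 fold change of MOBP was -0.07 without M6 replicate 3 and -1.71 with 6 libraries. MAL averaged 56.7 ± 32.9 and 112 ± 60.3 FPKM, and HAPLN2, a protein of the nodes of Ranvier, 25.7 ± 19.1 and 58 ± 35.1 FPKM. The myelin list summed to 559 and 1197 FPKM in M4 replicates 1 and 2 and to 844 FPKM in M6 replicate 4. In the other 7 libraries it summed to 6661 FPKM or more. The fit of 6 libraries leaves out those 2 M4 libraries and keeps M6 replicate 4, and in it the median of the list turned to -0.66. OLIG1, a transcription factor of the oligodendrocyte lineage, averaged 32.5 ± 15.3 and 58.4 ± 27.5 FPKM, and its list had a median of 0.46 with 13 of 14 positive and 0 at an unadjusted p under 0.05, and the median was -0.23 with 6 libraries. GFAP, the intermediate filament of astrocytes, averaged 1441 ± 868 and 2118 ± 961 FPKM, and the astrocyte list had a median of 0.26 with 0 of 13 at an unadjusted p under 0.05, and the median was -0.01 with 6 libraries.

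**Figure D4:**
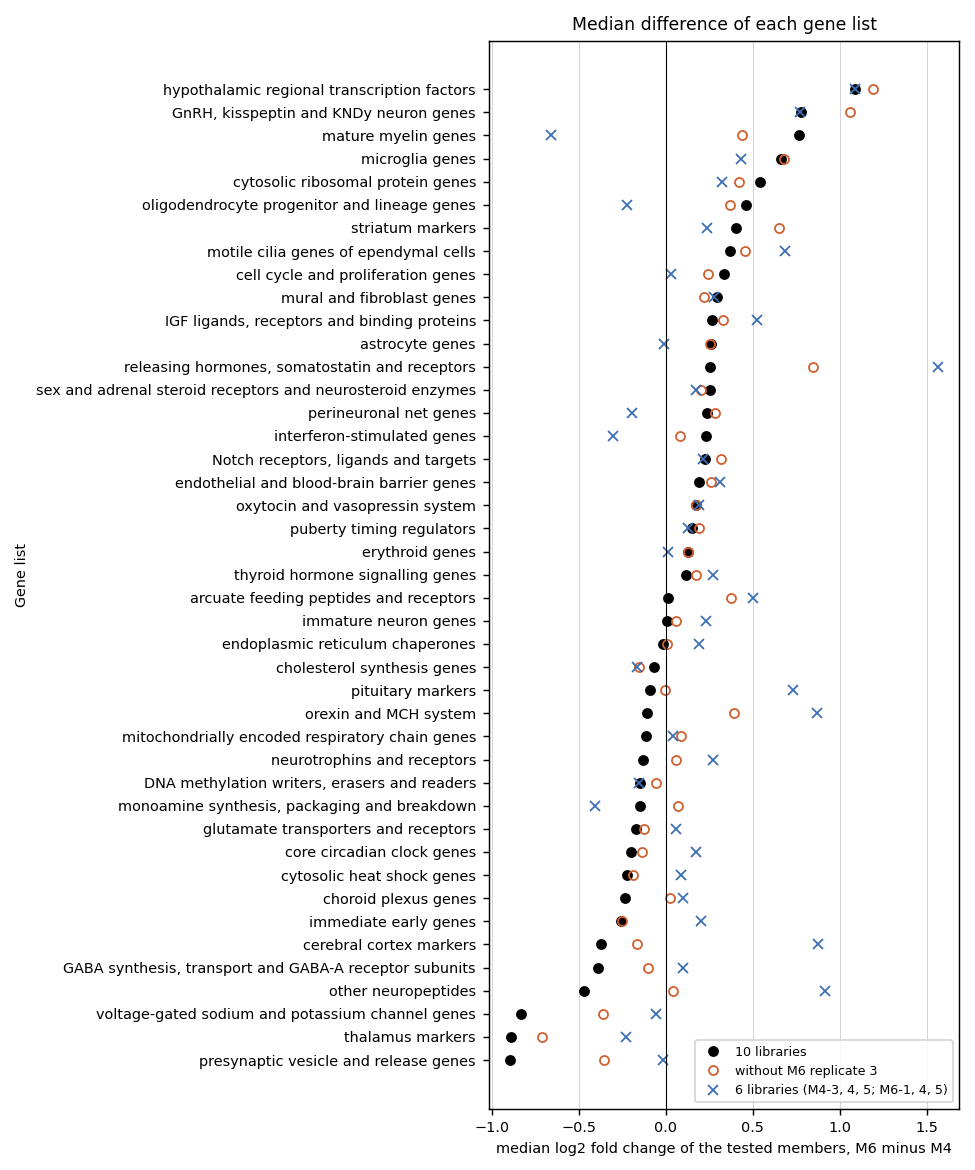
Each row is a gene list and the horizontal axis is the median log2 fold change (M6 minus M4) of its tested members. Filled points use all 10 libraries, open circles leave out M6 replicate 3 and crosses use the 6 libraries. The presynaptic and channel lists move from -0.90 and -0.83 to -0.02 and -0.06 with 6 libraries, while the myelin list crosses 0. The 6 libraries leave out M4 replicates 1 and 2, low in myelin genes, and keep M6 replicate 4, also low in them.

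The peptides that define hypothalamic nuclei were held by a few goats each. OXT, oxytocin, was at 0.0965, 0, 0, 86.3 and 0 FPKM in M4 replicates 1 to 5 and 2.32, 36.9, 0.804, 413 and 279 FPKM in M6 replicates 1 to 5. All 5 M6 libraries had some OXT while 3 of 5 M4 libraries were listed at 0, and M4 replicate 4 was above 3 of the M6 libraries. The log2 fold change of 5.81 ± 1.97 (limma adjusted p = 0.700) depended on the pseudocount, being 3.61 with a pseudocount of 1 and 7.94 with 0.01. AVP, vasopressin, made by neighbouring magnocellular neurons, was at 0.974, 1.24, 0.302, 392 and 0.246 FPKM at M4 and 1.56, 57.7, 1.83, 201 and 64 FPKM at M6. The highest AVP of the 10 was that of M4 replicate 4, the M4 library that also held OXT. The 4 libraries with high levels of both hormones were M4 replicate 4 and M6 replicates 2, 4 and 5. The log2 fold change of AVP was 2.98 ± 1.81 (limma adjusted p = 0.784).

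HCRT, the precursor of the orexins of the lateral hypothalamus, was at 0.0892, 0.384, 0.411, 0 and 0 FPKM at M4 and 0.712, 0, 2.71, 12.7 and 183 FPKM at M6. PMCH, the precursor of melanin-concentrating hormone in cells of the same area, was at 0.171, 0, 0, 2.19 and 0.290 FPKM at M4 and 0.402, 0, 61.4, 0.841 and 375 FPKM at M6. M6 replicate 5 held most of both, M6 replicate 3 held PMCH without much HCRT, and M6 replicate 4 held HCRT without much PMCH. The log2 fold changes were 4.03 ± 1.70 for HCRT and 3.75 ± 1.97 for PMCH, with limma adjusted p of 0.700 and 0.753, and the log2 fold change of HCRT was 6.17 with 6 libraries. SST, somatostatin, which restrains growth hormone, was at 79.2, 0.537, 3.67, 1.07 and 3.51 FPKM at M4 and 27.6, 22.5, 9.4, 123 and 25.1 FPKM at M6. Apart from M4 replicate 1, whose cortical genes were high, all M4 libraries were below all M6 libraries. The log2 fold change of SST was 2.90 ± 1.03 and its adjusted limma p 0.700. PENK, proenkephalin, was at 14, 0.176, 0.935, 0.373 and 1.44 FPKM at M4 and 2.12, 66.5, 4.75, 34.8 and 6.52 FPKM at M6, highest in the library with striatal genes (log2 fold change 3.16 ± 1.26).

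Genes of the GnRH, kisspeptin and neurokinin B list were unevenly held, and most of those named here were low, PDYN apart. GNRH1 was listed at 0 in all 5 M4 libraries and in M6 replicates 1 to 3, and stood at 0.863 and 0.860 FPKM in M6 replicates 4 and 5. No fold change is given against a group listed at 0. KISS1, kisspeptin, reached 0.0735 FPKM in 1 M4 library and at most 0.191 FPKM at M6, and did not pass the expression filter. Its receptor KISS1R lay between 0 and 0.319 FPKM at M4 and between 0 and 0.385 FPKM at M6. TAC3, neurokinin B, was at 0.631, 0.155, 0, 0 and 0.249 FPKM at M4 and 0, 0, 0, 12.6 and 1.35 FPKM at M6. The only library above 2 FPKM was M6 replicate 4. PDYN, prodynorphin, which the same arcuate neurons and others make, was at 6.83, 12.8, 1.13, 52.7 and 1.27 FPKM at M4 and 3.29, 67.7, 2.81, 77.8 and 15 FPKM at M6 (log2 fold change 1.33 ± 1.43). Its 3 highest libraries were M4 replicate 4 and M6 replicates 2 and 4, and the stages overlapped. NPVF, the gonadotropin-inhibitory peptide precursor, was above 1 FPKM in M6 replicate 4 alone (3.67 FPKM) and did not pass the filter. GAL, galanin, was at 0.0905, 0.536, 0.802, 0.683 and 0.510 FPKM at M4 and 0, 0, 0, 6.58 and 5.21 FPKM at M6, so that M6 held both the 3 lowest and the 2 highest libraries. Of the 10 tested genes of this list, 7 were positive and 3 negative (median 0.78), with 0 at an unadjusted p under 0.05 in limma.

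Genes that time puberty showed 1 member below an unadjusted p of 0.05 out of 14, beside 6.87% of all genes. LIN28B, an RNA-binding protein that blocks let-7 microRNAs and lies at a locus tied to age at menarche, was at 0.473, 3.61, 1.55, 3.04 and 3.35 FPKM at M4 and 5.83, 3.4, 5.92, 5.59 and 5.94 FPKM at M6. M6 replicate 2 was the one M6 library among the M4 values, and the log2 fold change was 1.36 ± 0.52 (limma adjusted p = 0.700). At D1 and M2 it averaged 3.16 ± 0.899 and 4.67 ± 3.3 FPKM. MKRN3, a repressor of puberty onset, was at 0.619, 0.754, 1.52, 1.11 and 1.57 FPKM at M4 and 1.82, 1.92, 2.56, 0.527 and 2.33 FPKM at M6. Its lowest library of all was M6 replicate 4, which had the most GNRH1, TAC3 and NPVF, and its log2 fold change was 0.59 ± 0.44 with 10 libraries and -0.06 with 6. NKX2-1, a transcription factor of the ventral hypothalamus, was at 0.0296, 0, 0, 0.243 and 0.222 FPKM at M4 and 0, 1.69, 0.480, 1.38 and 0.581 FPKM at M6.

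**Figure D5:**
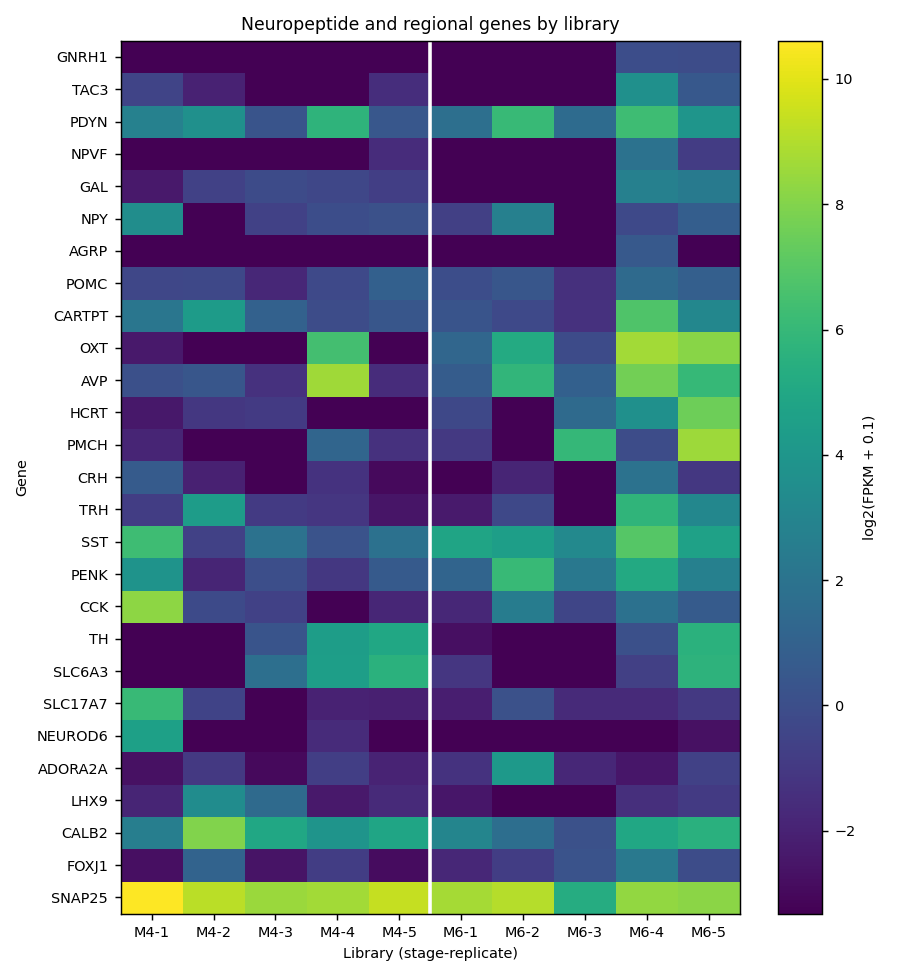
Colours give log2(FPKM + 0.1) of each gene (rows) in each library (columns, M4 left of the white line and M6 right). OXT and AVP are high in M4 replicate 4 and M6 replicates 2, 4 and 5, HCRT and PMCH in M6 replicate 5, TH and SLC6A3 in M4 replicates 4 and 5 and M6 replicate 5, and the cortical and striatal genes in 1 library each.

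Feeding and releasing peptides followed the same libraries. AGRP was listed at 0 in 9 of the 10 libraries and at 1.36 FPKM in M6 replicate 4. NPY, which agouti-related peptide neurons and cortical interneurons share, was at 11.3, 0, 0.554, 0.866 and 0.997 FPKM at M4 and 0.521, 6.7, 0, 0.742 and 1.73 FPKM at M6. POMC, the precursor of the satiety peptide α-MSH, lay between 0.191 and 1.8 FPKM at M4 and between 0.284 and 2.69 FPKM at M6 (log2 fold change 0.63 ± 0.55, 1.05 without M6 replicate 3 and 1.15 with 6 libraries). CARTPT, a satiety peptide precursor, was at 4.35, 20.1, 1.94, 0.837 and 1.21 FPKM at M4 and 1.11, 0.749, 0.303, 108 and 8.78 FPKM at M6. The M6 replicate 4 value made up most of its sum. LEPR, the leptin receptor, averaged 1.44 ± 1.22 FPKM at M4 and 2.63 ± 2.58 FPKM at M6, again with M6 replicate 4 the highest at 7.05 FPKM. TRH, thyrotropin-releasing hormone, was at 0.476, 20.7, 0.417, 0.369 and 0.0745 FPKM at M4 and 0.102, 0.720, 0, 55 and 8.79 FPKM at M6. CRH, corticotropin-releasing hormone, was highest in M6 replicate 4 (3.65 FPKM) and M4 replicate 1 (1.52 FPKM), and the other 8 were at or below 0.381 FPKM. GHRH, growth hormone-releasing hormone, was listed at 0 in all 10 libraries. Its releasing-hormone list had a median of 0.25 over 11 tested genes, 0.84 without M6 replicate 3 and 1.56 with 6 libraries. In the fit of 6 libraries 3 of its genes were higher at an unadjusted p under 0.05, beside 494 higher of all 16771 genes.

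Sex steroid receptors, through which ovarian hormones feed back, overlapped between ages. ESR1, estrogen receptor α, was at 0.0361, 0.253, 3.0, 3.19 and 0.403 FPKM at M4 and 0.729, 2.56, 1.91, 5.97 and 1.58 FPKM at M6 (log2 fold change 1.5 ± 0.80, limma adjusted p = 0.763). M4 replicates 3 and 4 were above 4 of the 5 M6 libraries and the other M4 libraries were below all of them, and with 6 libraries the difference was 0.24. PGR, the progesterone receptor, averaged 0.926 ± 0.542 FPKM at M4 and 0.951 ± 1.15 FPKM at M6. Its log2 fold change was -0.34 ± 0.69, with a 95% interval of -1.77 to 1.10, and -0.06 without M6 replicate 3 and -0.15 with 6 libraries. NR3C1, the glucocorticoid receptor, was at 13, 23.4, 25.1, 29.4 and 30.7 FPKM at M4 and 35.5, 37.5, 44.6, 35.1 and 23.6 FPKM at M6. Its log2 fold change was 0.57 ± 0.21 (limma adjusted p = 0.700), and 0.12 with 6 libraries. In the list of steroid receptors and enzymes, 2 of 14 genes were higher and 1 lower at an unadjusted p under 0.05, the lower being SRD5A1. Over all genes tested, 3.99% were higher and 2.88% lower at that level.

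Transcription factors of hypothalamic regions had the largest median of any list at a pseudocount of 0.1, 1.09 over 24 tested genes. Of these, 22 were positive, and 3 were higher at an unadjusted p under 0.05, beside 3.99% of all genes in that direction. ISL1, a factor of arcuate and other ventral neurons, was at 0, 0, 0, 0 and 0.0461 FPKM at M4 and 3.88, 0.886, 0.115, 3.23 and 0.986 FPKM at M6. Every M6 library was above every M4 library, and the values of M4 replicate 5 and M6 replicate 3 were close to 0 (log2 fold change 3.54 ± 1.03, adjusted limma p 0.700, and 1.27 with a pseudocount of 1). BSX, a factor of arcuate neurons, was at 0, 0, 0, 0 and 0.286 FPKM at M4 and 0.567, 0.901, 1.83, 0 and 0.329 FPKM at M6, and DLX5, a factor of GABAergic neurons, was at most 0.0406 FPKM at M4 and 1.12 FPKM at M6. These are levels under 4 FPKM, and the size of the list's median moved with the pseudocount, from 0.39 with a pseudocount of 1 to 2.27 with 0.01.

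Other lists had 3 or fewer genes below an unadjusted p of 0.05, given here as higher and lower of those tested, with medians between -0.89 (thalamus) and 0.41 (striatum). Over all genes tested, 3.99% were higher and 2.88% lower at that level, which are the shares to set beside these counts. Of the neuronal lists, feeding genes had 0 higher and 1 lower of 16 (median 0.01), the oxytocin and vasopressin system 1 higher and 0 lower of 6 (0.17), the orexin system 1 higher and 0 lower of 5 (-0.11), other neuropeptides 2 higher and 1 lower of 18 (-0.47), GABA genes 1 higher and 1 lower of 22 (-0.39), glutamate genes 0 higher and 1 lower of 24 (-0.17) and monoamine genes 1 higher and 0 lower of 10 (-0.15). Immature neuron genes had 0 higher and 1 lower of 12 (0.00), perineuronal net genes 0 higher and 1 lower of 11 (0.24), immediate early genes 0 higher and 0 lower of 21 (-0.26), neurotrophins 0 higher and 1 lower of 8 (-0.13) and puberty timing genes 1 higher and 0 lower of 14 (0.15). The regional markers had 0 higher and 0 lower of 8 for cortex (-0.37), 0 higher and 0 lower of 10 for striatum (0.41), 0 higher and 1 lower of 10 for thalamus (-0.89) and 0 higher and 0 lower of 4 for pituitary (-0.09). Lists of other cells gave 1 higher and 0 lower of 16 for endothelium (0.19), 0 higher and 0 lower of 12 for mural cells and fibroblasts (0.29), 0 higher and 0 lower of 9 for choroid plexus (-0.23), 0 higher and 0 lower of 19 for motile cilia (0.37), 0 higher and 0 lower of 4 for erythroid cells (0.12) and 1 higher and 0 lower of 19 for interferon-stimulated genes (0.23). Among cell processes, cholesterol synthesis had 0 higher and 1 lower of 20 (-0.07), proliferation 2 higher and 1 lower of 21 (0.33), the circadian clock 0 higher and 0 lower of 18 (-0.20), thyroid hormone signalling 0 higher and 0 lower of 11 (0.12), the IGF system 0 higher and 0 lower of 11 (0.26), DNA methylation 0 higher and 0 lower of 12 (-0.15), endoplasmic reticulum chaperones 1 higher and 0 lower of 15 (-0.02), heat shock genes 0 higher and 1 lower of 13 (-0.22) and the mitochondrial genome 0 higher and 1 lower of 13 (-0.12).

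Many of these medians changed with the libraries used. Without M6 replicate 3 the sign turned for the orexin system (0.39), other neuropeptides (0.04), monoamine genes (0.07), neurotrophins (0.06), choroid plexus (0.02), chaperones (0.01) and the mitochondrial genome (0.09), and the feeding list had 0.37. With 6 libraries it turned for the orexin system (0.87), other neuropeptides (0.91), cortex (0.87), pituitary (0.73), GABA genes (0.10), glutamate genes (0.06), interferon-stimulated genes (-0.30), perineuronal nets (-0.20), immediate early genes (0.20), the clock (0.17), neurotrophins (0.27), choroid plexus (0.10), chaperones (0.19), heat shock genes (0.08) and the mitochondrial genome (0.04). The thalamus list had -0.23 with 6 libraries, the feeding list 0.50, the striatum list 0.24, the monoamine list -0.41, the cilia list 0.68, the proliferation list 0.03 and the IGF list 0.53. The median of all genes tested was 0.07 without M6 replicate 3 and 0.09 with 6 libraries. Other neuropeptides, neurotrophins, choroid plexus and chaperones stayed below it without M6 replicate 3, and glutamate, heat shock and mitochondrial genes with 6 libraries. The plot of list medians shows all 3 values for each list.

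The Notch list had 3 higher and 0 lower of 13 (median 0.23), beside 3.99% of all genes higher and 2.88% lower. Among the 3 was HES1, the main target of Notch in neural progenitors. HES1 was at 5.13, 4.12, 2.64, 3.1 and 2.66 FPKM at M4 and 4.54, 4.58, 4.1, 7.74 and 4.65 FPKM at M6, and its log2 fold change was 0.53 ± 0.24, or 0.94 with 6 libraries. Of the chaperones, CRELD2, an endoplasmic reticulum stress protein, had every M6 library above M4, with a mean of 4.37 ± 1.18 FPKM at M4 and 6.99 ± 1.47 FPKM at M6 (log2 fold change 0.69 ± 0.25, limma adjusted p = 0.700). DIO2, the deiodinase of tanycytes that links day length to reproduction, was at 9.89, 2.0, 3.38, 3.85 and 6.2 FPKM at M4 and 3.47, 8.08, 0.527, 0.622 and 2.66 FPKM at M6. Its log2 fold change of -1.13 ± 0.62 had a limma adjusted p of 0.770, and was -0.70 without M6 replicate 3. IGF1, insulin-like growth factor 1, averaged 2.03 ± 2.06 FPKM at M4 and 2.08 ± 0.633 FPKM at M6.

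The genes that varied most among goats of 1 age included several peptide and dopamine genes. Among genes with a mean of at least 5 FPKM, the 10 with the widest spread within a stage were COX3, OXT, SLC6A3, TH, PMCH, AVP, CNBD2, SLC18A2, MEGF9 and CCK, with SDs within a stage of 3.42 to 4.14 on the log2 scale. TH, the rate-limiting enzyme of dopamine synthesis, was at 0, 0, 1.12, 21.4 and 31.3 FPKM at M4 and 0.0499, 0, 0, 0.964 and 47.1 FPKM at M6. SLC6A3, the dopamine transporter, was at 0, 0, 3.31, 22.6 and 47.1 FPKM at M4 and 0.355, 0, 0, 0.520 and 52.3 FPKM at M6, with SLC18A2, the vesicular monoamine transporter, highest in the same 3 libraries (53.2, 114 and 47.1 FPKM). M4 replicates 4 and 5 and M6 replicate 5 therefore held the dopaminergic genes. COX3, a mitochondrially encoded subunit of cytochrome oxidase, was at 1118 FPKM in M4 replicate 5 and 1012 FPKM in M6 replicate 5, against 1.16 to 2.03 FPKM in the other 8 libraries. COX1, of the same complex, ranged only from 4013 to 8301 FPKM. CNBD2 was over 16 FPKM in 6 libraries and under 0.7 FPKM in M4 replicates 1 and 2 and M6 replicates 2 and 5. MEGF9 was between 27.7 and 50.3 FPKM in 7 libraries and under 0.5 FPKM in M4 replicates 3 and 4 and M6 replicate 3. CCK, cholecystokinin, was at 298 FPKM in M4 replicate 1 and at most 5.73 FPKM elsewhere. The top gene of 8 libraries was LOC102181504 (chr10:76155642-76156674), at 6784, 19810, 7644, 15090 and 25400 FPKM at M4 and 17120, 23730, 26100, 26750 and 39470 FPKM at M6. KLHDC1 was the top gene of M6 replicate 3 (37090 FPKM, 2553 to 16050 FPKM at M4) and COX1 that of M4 replicate 1.

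Single libraries also carried many of the larger differences. Of all genes tested, 704 (4.20%) had over 50% of their 10-library sum in 1 library, and among the 1092 genes whose log2 fold change was 1 or more in either direction this was the case for 206 (18.9%). M6 replicate 3 held 130 of the 704, M4 replicate 2 held 108 and M4 replicate 1 held 107, against 16 in M6 replicate 1. Of the 13533 genes with a mean of at least 1 FPKM, M6 replicate 3 was the lowest of the 10 libraries in 23.5% and the highest in 14.3%, and M4 replicate 1 was the lowest in 20% and the highest in 20.2%.

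The 95% intervals give the precision of each log2 fold change with 5 goats per age, gene by gene. They are not corrected for the number of genes tested, so a difference larger than its half-width can still go uncalled. The median half-width of the 95% interval of a log2 fold change was 0.75, with quartiles of 0.53 and 1.13. For 7646 of the 16771 genes (45.6%) the whole interval lay between -1 and 1, and for the 8383 genes with a mean of at least 5 FPKM this held for 5696 (68.0%). For OXT, HCRT and TH the intervals spanned 1.70 to 9.91, 0.48 to 7.57 and -6.11 to 3.40 on the log2 scale.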

How the data were processed

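RNA of the hypothalamus of 20 goats was sequenced as strand-specific libraries depleted of rRNA. After trimming, the authors mapped reads to the ARS1.2 goat genome with HISAT2 2.0.5 and assembled and quantified transcripts with StringTie 1.3.3b (versions from the submitters' processing notes). The deposited values are FPKM of 21071 genes. They are not whole multiples of 1 step per library, so reads and counting error were not recovered.

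A gene was tested if 5 or more of the 20 libraries reached 0.1 FPKM (16771 genes). Tests used limma 3.58.1 (R 4.3.3) on log2(FPKM + 0.1), in 1 fit of the 4 stages with a trend in the variance, with Benjamini-Hochberg adjustment over all genes tested. The fit was tested on simulated data. Summaries were made in Python 3.11.15 (scipy 1.17.1, numpy 2.4.6, pandas 2.3.3) and drawn with matplotlib 3.10.9. Exact permutation tests were two-sided. A description of the DEGs of M2 vs. D1 at the later stages was not made, since limma called 0.

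The named genes were every DEG, the 12 genes per direction with the smallest p among those with a mean of at least 1 FPKM and no overlap, the 3 members of each list with the smallest p and the 2 with the highest level, hormone and receptor genes, the 10 genes of widest spread, and the top gene of each library. The text gives a part of these, and some are not reported here. The members and the lists were chosen with earlier results of these data known. Positions are those of the RefSeq annotation of ARS1.2, which held 20610 of the genes, 20572 of them protein-coding. Values of lncRNA transcripts were not analysed here. Each goat was taken as 1 replicate. Alternatives were another pseudocount, other filters, a fit of the 10 libraries, quantile and median-ratio scaling, variances without a trend, a replicate block, the mapping rate as a covariate, both of these, library quality weights, and leaving out each library.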

Additional observations from a re-analysis of the deposited data

Results flagged for a closer look

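In each group of 5 goats, a library was marked where its gap to the nearest other library exceeded 0.71 of the group's range (Dixon's 95% limit). This held for 31 of 202 groups of a named gene at 1 stage and for 9 of 86 groups of a list level. M4 replicate 1 and M6 replicate 3 had 9 of these each. Dixon's limit marks about 1 in 20 groups by chance if values are normally distributed and the groups were not chosen for their spread. The named genes include those of widest spread within a stage. In some of their marked groups only 1 library had any FPKM, and such a group is always marked. The numbers of marks were therefore not compared with chance. No cause was tested.

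M4 replicate 1 was high in CCK (298 FPKM), NEUROD6 (23.6 FPKM), SYT1 (569 FPKM), PRUNE2 (25.4 FPKM) and DLX5 (0.0406 FPKM, the other 4 at 0), and low in GAL (0.0905 FPKM). It was also high in the mean log2(FPKM + 0.1) of the cortex markers (4.38), the immediate early genes (1.73) and the thyroid hormone signalling genes (2.20). M4 replicate 2 was high in TRH (20.7 FPKM) and VAMP2 (85.5 FPKM). M4 replicate 3 was low in TAZ (1.21 FPKM). M4 replicate 4 was high in OXT (86.3 FPKM), AVP (392 FPKM) and the mean log2 level of the oxytocin and vasopressin system (3.35). M4 replicate 5 was high in COX3 (1118 FPKM) and was the only M4 library above 0 for KISS1 (0.0735 FPKM), NPVF (0.246 FPKM), ISL1 (0.0461 FPKM) and BSX (0.286 FPKM).

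M6 replicate 3 was low in SNAP25 (39.2 FPKM), GRIN2A (0.227 FPKM), SCN3B (1.41 FPKM), MEGF9 (0.0765 FPKM) and LOC108636610 (0.742 FPKM), and high in CIB1 (24.8 FPKM) and C10H14orf93 (4.34 FPKM). Its mean log2 levels of presynaptic genes (1.05) and of channel genes (0.537) were low. M6 replicate 2 was high in PPP1R1B (102 FPKM), ADORA2A (18.7 FPKM) and the mean log2 level of striatum markers (4.38), and low in LIN28B (3.40 FPKM). M6 replicate 4 was high in HES1 (7.74 FPKM), AGRP (1.36 FPKM, the other 4 at 0) and the mean log2 level of steroid receptors and enzymes (2.27), and low in MKRN3 (0.527 FPKM). M6 replicate 5 was high in COX3 (1012 FPKM) and the only M6 library above 0 for NEUROD6 (0.0555 FPKM). M6 replicate 1 was low in the mean log2 level of immediate early genes (0.0219).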

How the results depend on the processing

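DEGs numbered 0 in every alternative but the one of 6 libraries, with an unadjusted p under 0.05 in 676 to 1559 genes when a library was left out, 174 to 788 of them lower at M6. The low ends were without M6 replicate 3, the high ends without M4 replicate 5 and M6 replicate 4, and without M4 replicate 2 there were 294 lower genes. The lower genes numbered 304 in a fit of the 10 libraries. Library quality weights gave 749 genes, 411 of them higher. Median-ratio scaling turned the share of higher genes from 58.1% to 48.0%, quantile normalization to 51.1%, and the replicate block with the mapping rate gave 754 lower genes. Over all genes, the deviations of same-numbered goats of M4 and M6 had an r of -0.18 to 0.18, and 1 of 5 M4 libraries was closest to its own number. These 5 values cannot decide whether the numbers pair the goats. COX3 was at 1118 and 1012 FPKM in replicate 5 of M4 and of M6, against 1.16 to 2.03 FPKM in the others. The replicate block gave 854 genes and 0 DEGs.

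With 6 libraries, chosen after the data were seen, 1 gene was a DEG, higher at M6, and 633 genes had an unadjusted p under 0.05, 139 of them lower. The DEG, named after its values were seen, was MAX, the dimer partner of MYC (log2 fold change 1.74 ± 0.22 SE, limma adjusted p = 0.00676). Over 10 libraries MAX was at 44.3, 20.8, 6.80, 9.6 and 10.03 FPKM at M4 and 32.7, 27.3, 30.1, 26.6 and 29.0 FPKM at M6 (1.01 ± 0.33, adjusted p = 0.700), and the M4 values that the 6 libraries leave out are the 2 highest of M4.

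List medians moved beyond the spread within a stage as follows. With 6 libraries they were 1.56 for releasing hormones, 0.91 for other neuropeptides, 0.73 for pituitary markers, -0.66 for myelin, -0.012 for astrocytes, 0.10 for choroid plexus, 0.027 for proliferation, -0.20 for perineuronal nets, 0.17 for the clock, 0.27 for neurotrophins, 0.085 for heat shock genes and -0.058 for channels. Under the filter of a mean of at least 1 FPKM, which left few members, they were 1.73 for the oxytocin and vasopressin system and 3.89 for the orexin system. The regional transcription factors went to 0.39 with a pseudocount of 1 and 2.27 with 0.01, and proliferation to 0.11 under quantile normalization. Leaving out a library gave -0.10 to 0.44 for Notch and -0.32 to -0.017 for heat shock genes, the ends near 0 or past it without M4 replicate 1. Of 98 named genes tested, 75 kept 1 sign in every alternative. Among them are the genes chosen without overlap, whose sign most alternatives cannot turn. GRIN2A, BSN and BDNF, lower at an unadjusted p under 0.05, turned to 0.043, 0.018 and 0.12 with 6 libraries. A further 23 of 2245 gene values moved beyond the spread within a stage. The study reports its sequencing depth, but the fragments behind each value were not recovered. Whether values near 0 FPKM are absence or too few fragments was not tested. Where a cause of a change is not given by how the alternative is built, it was not tested.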
